A study of Mus musculus with 12 samples.

Results

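TB13 is a murine acute myeloid leukaemia line that expresses Trib1 and Bcl11a, and it was compared here with a leukaemia line that expresses Trib1 alone, called Trib1. The comparison used 8 of the 12 arrays of the series, chosen by their titles, 4 for each line. The other 4 arrays came from TB14, another line labelled as expressing both genes, and they are used below only to show where TB13 differed from it. All 3 lines expressed Trib1, were grown in medium with fetal bovine serum and interleukin-3, and had no treatment. Total RNA was hybridized as biotin-labelled cRNA to arrays of 45141 probe sets. Each group was 1 line, and the labels do not give how the genes were introduced. The labels do not say whether the 4 arrays of a line were 4 cultures or 1, so a p-value here covers array-to-array spread, which may be technical, and never the spread from one line to another. Precision was limited by how few arrays there were.

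Trib1 is a pseudokinase that brings the transcription factor C/EBPalpha to a ubiquitin ligase, and loss of C/EBPalpha holds back granulocyte development. Bcl11a is a zinc finger repressor known from lymphoid cells and from the silencing of fetal globin. The study asked whether Bcl11a acts against PU.1, the ETS factor encoded by Spi1 that switches on genes of monocytes, granulocytes and dendritic cells.

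In TB13, many genes of mature myeloid cells and 10 of 16 genes of cholesterol synthesis were called lower than in Trib1. Other genes, among them Mpo, Lat, Thy1 and Fundc1, were higher. A gene was included when a probe set naming it alone was brighter than the array median on 4 or more of the 8 arrays, and 11066 genes met this. A gene was called when limma's treat test against a 1.5-fold change, after quantile scaling and Benjamini-Hochberg adjustment over all 11066 genes, gave an adjusted p under 0.05. A log2 change is the difference between the line means of log2(intensity + 12.7), which understates the change of dim genes. Of the 11066 genes, 971 were called higher in TB13 (8.77%) and 839 lower (7.58%). Within a line, genes had a median SD of 0.0751 log2 units.

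The TB13 arrays stood apart before any gene was considered. Their 18 hybridization controls, RNAs added in known amounts, were lower than on the Trib1 arrays by a median log2 difference of -1.11, and 17 of the 18 were lower. The nonspecific control probe sets, which match no mouse transcript, were brighter in TB13 the more G and C bases they held. Their ratio of TB13 to Trib1 was 0.936 at 3 such bases, 1.14 at 20 and 2.71 at 25, where TB13 was at 530 and both Trib1 (196) and TB14 (197) were lower. The split between higher and lower calls moved with the scaling. After quantile scaling 53.6% of the calls were higher, against 12.8% for the values as deposited, 2.86% after median scaling, 55.7% after cyclic loess and 97.2% after calibration on the hybridization controls. The median change of all genes was 0.03, -0.40, -0.64, 0.03 and 0.50 in the same order. No gene called after quantile scaling was called in the opposite direction under another scaling. Calls made in the same direction under all 5 scalings are given most weight below. They numbered 148 higher (1.34% of the genes tested) and 134 lower (1.21%), which was 15.6% of the quantile calls. Every call against Trib1 named below that is not among these 282 genes was lost under at least 1 of the other scalings.

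**Figure D1:**
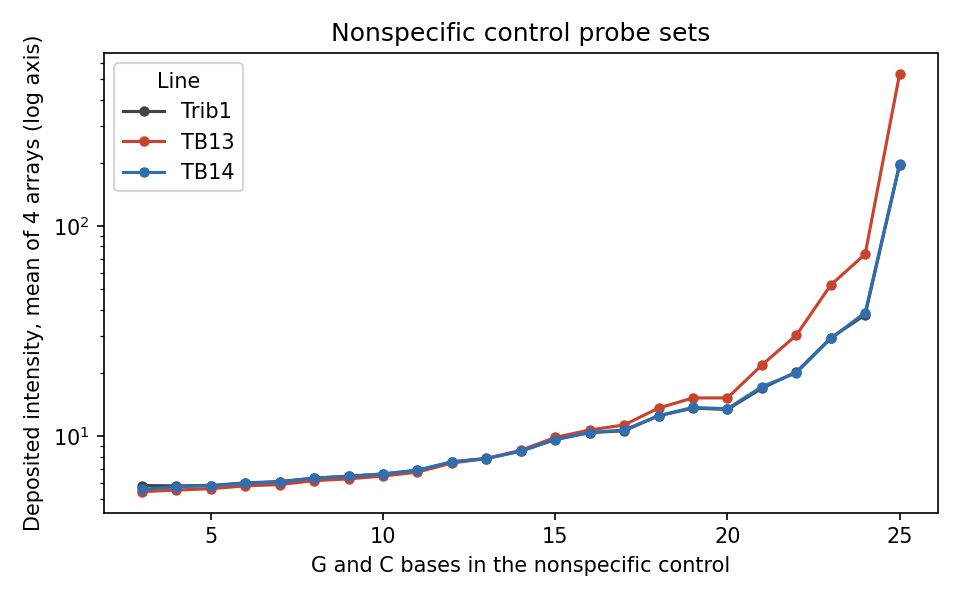
Deposited intensity (mean of 4 arrays, log axis) of the nonspecific control probe sets against the number of G and C bases they hold, for the 3 lines. The curves of Trib1 and TB14 lie on each other, and TB13 departs upwards above about 20 bases, reaching 530 against 196 in Trib1 at 25.

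**Figure D2:**
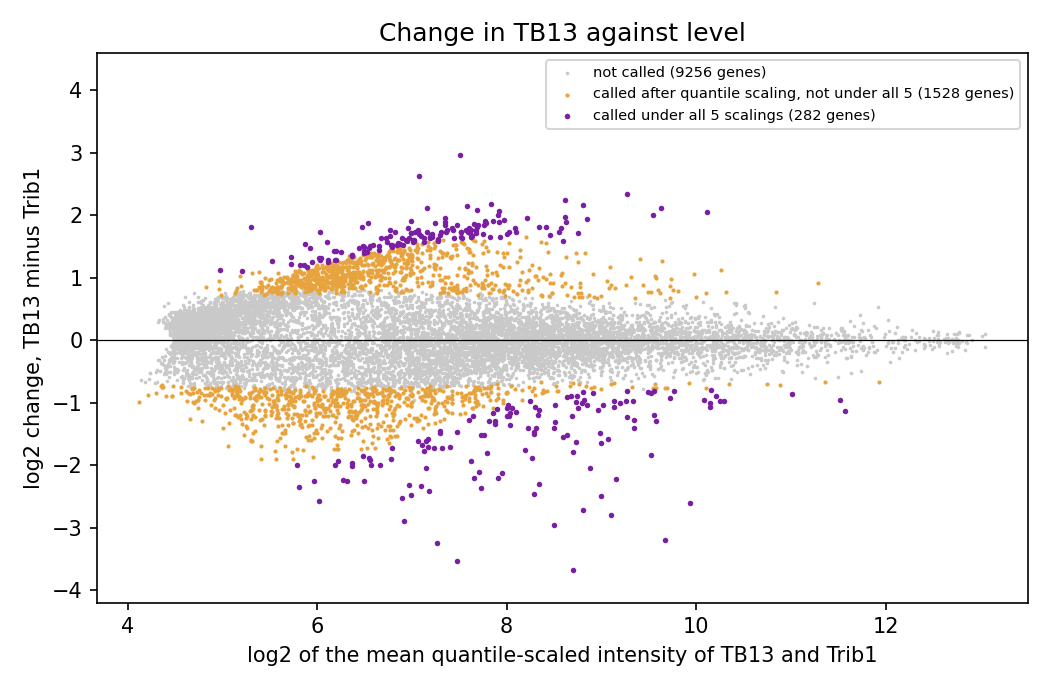
Log2 change in TB13 (y axis) against the log2 of the mean quantile-scaled intensity of both lines (x axis), 1 point per gene for 11066 genes. Purple points were called under all 5 scalings (282 genes), orange points after quantile scaling but not under all 5, and grey points were not called. Among the purple points, the rises lie at lower levels than many of the falls.

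Under all 5 scalings, the higher and lower calls differed in brightness and in how far other probe sets bore them out. The 148 genes higher under all 5 scalings had a median intensity of 58.7 in Trib1 and 228 in TB13, and the 134 lower ones had 451 and 153. In TB14 the same higher genes had a median of 64.7, and the same lower genes 188. Among other probe sets of the higher genes, 22 of 83 (26.5%) were called higher as well and 4 were called lower. Among those of the lower genes, 44 of 74 (59.5%) were called lower and 1 higher. Over all quantile calls, the 971 higher genes had medians of 53.5 in Trib1 and 143 in TB13, and the 839 lower ones 124 and 48.9. The contrast in brightness therefore depended on the choice of calls. The part of the G and C dependent signal of the TB13 arrays in these rises was not tested.

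The probe sets of the introduced genes did not check the labels. The 4 Bcl11a probe sets lay between 6.74 and 22.8 scaled units on all 12 arrays, and none passed the filter. The 2 Trib1 probe sets lay between 15.3 and 38.2. Whether these probes can read the introduced sequences is not known from the labels or files. Spi1 read 483, 506, 499 and 516 on the Trib1 arrays and 423, 351, 357 and 406 on the TB13 arrays. All 4 TB13 values lay below those of Trib1, but the log2 change of -0.38 did not pass limma's 1.5-fold test after quantile scaling (adjusted p = 1). Without scaling it was -1.11, which did pass. Cebpa was at 1294 ± 26 (SD, n = 4) in Trib1 and 1221 ± 78.1 in TB13, a log2 change of -0.08 that did not pass. After median scaling the change of Cebpa was -0.7, which did pass.

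The largest falls included genes of mature myeloid cells, proteases and lipid mediators. Rnf128, a transmembrane ubiquitin ligase, read 784, 781, 776 and 788 in Trib1 and 53.7, 42.0, 42.4 and 60.6 in TB13. It fell by 3.68 on the log2 scale (SE 0.0772, limma adjusted p = 1.56e-14), and a second probe set had a log2 change of -3.30. Gzma, the cytotoxic granule protease granzyme A, read 340, 347, 340 and 329 in Trib1 and between 17.0 and 18.9 in TB13. Both genes were far below every Trib1 array, and in TB14 they were low too, at 77.6 to 86.7 for Rnf128 and 14.3 to 15.7 for Gzma.

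F13a1, a monocyte gene for the catalytic chain of the fibrin-crosslinking factor XIII, was at 289 ± 20.3 in Trib1 and 19.0 ± 1.69 in TB13 (SD, n = 4). The log2 change was -3.25 (SE 0.0716). Tgm2, the tissue transglutaminase of the same enzyme family, went from 957 to 986 in Trib1 to 96.5 to 149 in TB13. Alox5, the lipoxygenase that starts leukotriene synthesis, read 1478, 1511, 1433 and 1485 in Trib1 and 182, 134, 119 and 177 in TB13. In TB14 it lay between 512 and 540, and TB13 was lower than TB14 by a log2 difference of -1.72 (limma adjusted p = 2.45e-08). Cyp4f18, a cytochrome that acts on leukotriene B4, was at 729 to 851 in Trib1 and 98.1 to 134 in TB13.

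Cdkn2a, which encodes the cell cycle inhibitor p16Ink4a and the p53 activator Arf, read 641, 641, 684 and 636 in Trib1 and 79.4, 80.0, 82.1 and 54.5 in TB13. The log2 change was -2.95 (SE 0.0849, limma adjusted p = 1.4e-12), and TB13 was also lower than TB14 by a log2 difference of -1.37. Tgfbi, an extracellular matrix protein of macrophages, fell from 217 to 231 in Trib1 to 16.5 to 20.3 in TB13, and lay between in TB14 at 93.3 to 98.0. Itgam, the CD11b chain of the Mac-1 integrin, read 227, 221, 224 and 224 in Trib1 and 29.5, 26.8, 24.9 and 40.0 in TB13. In TB14 Itgam was at 121 to 141, where its change against Trib1 was not called, and TB13 lay below TB14 by a log2 difference of -1.76 (limma adjusted p = 9.29e-09).

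Avil, which encodes the actin-binding protein advillin, was at 1695 ± 42.9 in Trib1 and 269 ± 16.6 in TB13 (SD, n = 4). Here TB14 was lower still, at 67.9, and the log2 difference of TB13 minus TB14 was 1.80. Il1r2, the decoy receptor for interleukin-1, went from 873 ± 13.6 to 144 ± 9.49. Hgfac, a serine protease that activates hepatocyte growth factor, went from 526 to 548 to 67.5 to 116. Pkd2l1, a cation channel, went from 244 to 266 to 34.7 to 42.3, and Fgd4, an exchange factor for Cdc42, from 116 to 124 to 8.20 to 11.1. All 14 of these falls were called under each of the 5 scalings, and none overlapped with Trib1. Both were conditions of their choice, and 34% of all genes lay below Trib1 without overlap. In TB13, Gzma, F13a1, Tgfbi and Fgd4 lay below the array median of 22.7, which limits what their exact size says.

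Among the rises, part was shared with TB14 and part was not. Fundc1, a mitophagy receptor of the outer mitochondrial membrane, read 29.3, 31.0, 31.1 and 33.8 in Trib1 and 310, 343, 347 and 330 in TB13. It rose by 2.97 on the log2 scale (SE 0.0491, limma adjusted p = 1.56e-15), by 2.28 at a second probe set, and stood at 318 to 336 in TB14. Mpo, the myeloperoxidase of primary granules, read 181, 197, 200 and 200 in Trib1 and 1042, 1027, 1045 and 1063 in TB13. TB14 was higher again, at 2192 to 2238, and TB13 lay below it by a log2 difference of -1.08 (limma adjusted p = 2.46e-10). Of the 148 genes higher in TB13 under all 5 scalings, 22 (14.9%) were called higher in TB14 too. Of all 971 genes called higher after quantile scaling 72 (7.42%) were, against 1.27% of all genes tested. Both comparisons share the Trib1 arrays.

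Lat, the adaptor that links antigen and IgE receptors to calcium signalling, read 158, 159, 150 and 158 in Trib1 and 760, 754, 705 and 746 in TB13. Thy1, a surface protein of T cells and some progenitors, was at 57.6 to 67.0 in Trib1 and 307 to 328 in TB13. Ms4a2, the beta chain of the IgE receptor, was at 66.1 to 75.6 and 329 to 367, and a second probe set gave a log2 change of 1.56. These 3 genes were high in TB14 as well, with means of 666, 418 and 550. Ugt1a6a and Ugt1a9, glucuronosyltransferases, went from 28.4 to 241 and from 45.5 to 241 as line means. The Ugt1a transcripts share their 3′ exons, so the probe sets may not tell them apart.

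A further group was high in TB13 alone of the 3 lines. Snrpn, an imprinted gene for a spliceosome protein, read 308, 294, 288 and 270 in Trib1, 1292, 1307, 1234 and 1362 in TB13 and 254 to 270 in TB14. A second probe set gave a log2 change of 2.07 and another, dim one gave 0.53, which did not pass. Tcl1b3, of the Tcl1 family of Akt coactivators, went from 402 to 439 in Trib1 to 1760 to 1821 in TB13, with 348 to 375 in TB14. Its probe set carries the suffix for sequence shared with other transcripts, and family members may not be told apart. The log2 differences of TB13 minus TB14 were 2.25 for Snrpn and 2.27 for Tcl1b3 (limma adjusted p = 6.52e-15 and 1.16e-16).

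Other probe sets did not bear out every rise of this kind. Aplp2, a relative of the amyloid precursor protein, went from 292 to 1204 at its brightest probe set, but its 4 other probe sets had log2 changes of 0.75, -0.73, 0.18 and -0.55. Aif1l, an actin-bundling protein, read 67.7 to 78.3 in Trib1 and 350 to 412 in TB13, and its other probe set gave 0.44, which did not pass. Laptm4b, a lysosomal membrane protein, went from a mean of 89 in Trib1 to 382 to 410, and its 2 other probe sets were called higher with 1.23 and 1.60. Tph1, the enzyme that makes serotonin in peripheral cells, was at 124 to 137 in Trib1, 612 to 689 in TB13 and 229 to 242 in TB14. Mmp8, the neutrophil collagenase, was at 80.5 to 89.8, 391 to 407 and 177 to 190. Unlike the genes above, Tph1 and Mmp8 were called higher in TB14 too, and neither had another probe set that passed the filter. The 14 rises were chosen for values that did not overlap, and 37.7% of all genes lay above Trib1 without overlap.

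**Figure D3:**
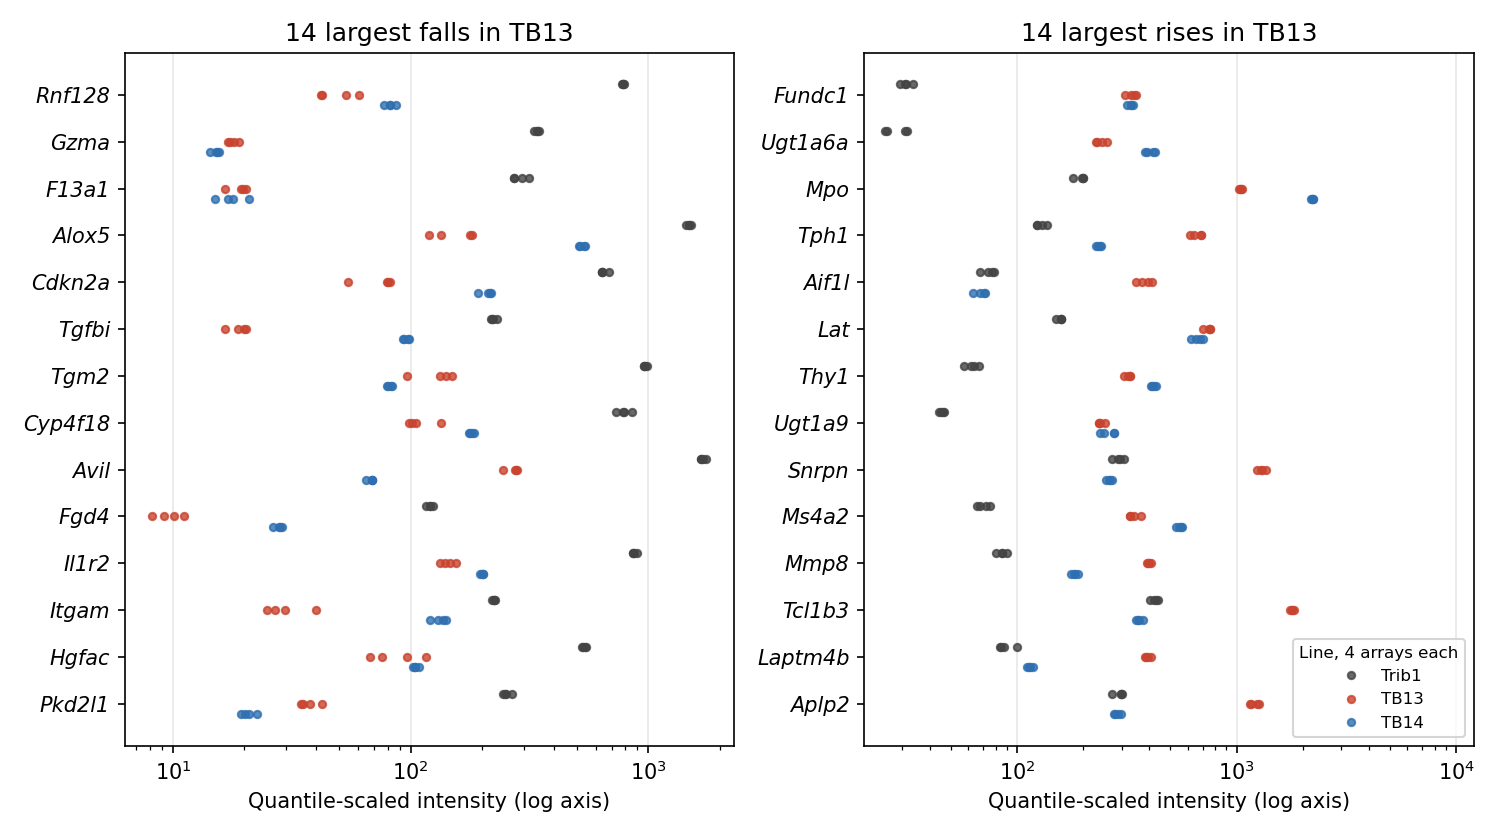
Quantile-scaled intensity (log axis) on each of the 4 arrays of Trib1, TB13 and TB14 for the 14 largest falls (left) and the 14 largest rises (right) of TB13 called under all 5 scalings. TB13 and Trib1 do not overlap for any of the 28 genes, while TB14 lies near TB13 for some (Gzma, F13a1, Fundc1, Lat) and near Trib1 for others (Snrpn, Tcl1b3, Aplp2, Aif1l).

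The calls under all 5 scalings were set beside those of TB14. Of the 134 genes lower in TB13 under all 5 scalings, 98 (73.1%) were called lower in TB14 too, where 2.94% of all genes were. That share was only 25.3% (212 genes) over all 839 genes called lower after quantile scaling. Of the 134 genes, 38 (28.4%) were called lower in TB13 than in TB14. Of the 148 higher genes, 129 (87.2%) were called higher in TB13 than in TB14. Over all genes 9.06% were called higher in TB13 than in TB14 and 5.91% lower. The comparisons with Trib1 share the Trib1 arrays. That of TB13 with TB14 shares the TB13 arrays on which the genes were chosen, which favours calls in the same direction. These shares are therefore not independent evidence. Of the 38 genes that fell further in TB13, several were near the Trib1 level in TB14, and these were picked after their values were seen. Crip1, a small LIM domain protein, had line means of 762 in Trib1, 177 in TB13 and 884 in TB14. Lcn2, the siderophore-binding lipocalin of secondary granules, read 312 to 324 in Trib1, 61.5 to 101 in TB13 and 275 to 296 in TB14.

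PU.1 is known to drive a large set of myeloid genes, and calls in both directions were made in TB13. Of 33 such genes listed, 25 passed the filter, 8 were called lower (5 under all 5 scalings) and 2 higher, where 7.58% and 8.77% of all genes were, with a median log2 change of -0.38 against 0.03 for all genes. Without the 3 genes the study took up, 5 of 22 were lower (3 under all 5 scalings) and 2 higher, with a median of -0.31. The higher ones were Csf3r and Fgr, and the limma adjusted p of Fgr was 0.0643 without Trib1 replicate 1 and 0.0796 without replicate 4. Another Fgr probe set gave -0.04, which did not pass. Those 3 genes, Clec5a, Fcgr3 and Asb2, were all lower; the study chose them on these samples, so they are no independent evidence of direction. Clec5a, a lectin-like receptor that signals through Dap12, read 531, 530, 555 and 572 in Trib1 and 93.3, 109, 87.5 and 115 in TB13, and its log2 change of -2.30 passed (SE 0.0646, limma adjusted p = 2.36e-12). Fcgr3, a low-affinity receptor for IgG, was at 1441 ± 36.3 and 734 ± 62.4 (SD, n = 4), a log2 change of -0.96. Asb2, the substrate receptor of a ubiquitin ligase for filamins, read 313 to 350 in Trib1, 168 to 197 in TB13 and 67.0 to 71.0 in TB14. Its fall in TB13 was smaller than in TB14, by a log2 difference of 1.23 (limma adjusted p = 4.46e-08), and it was called under 4 of the 5 scalings.

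Monocyte and macrophage genes included 5 lower and 1 higher among 14 that passed of 24 listed, where 7.58% and 8.77% of all genes were. Cd68, a lysosomal glycoprotein of macrophages, read 615, 678, 641 and 659 in Trib1 and 209, 185, 223 and 185 in TB13. Ctss, the protease cathepsin S, was at 466 ± 11.3 and 157 ± 16.9. Lgals3, the lectin galectin-3, and the chemokine gene Ccl6 were lower with log2 changes of -0.77 and -0.66. Ms4a6c was higher, from 38.9 to 82.0. Fewer cells of a type and less RNA per cell cannot be told apart in these bulk samples.

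Among dendritic cell and MHC class II genes, 7 of 13 that passed were lower (7.58% of all genes were), 2 of them under all 5 scalings, and none was called higher. H2-DMa, a chaperone that loads peptides on class II molecules, read 349, 338, 343 and 355 in Trib1 and 73.1, 73.8, 74.0 and 62.2 in TB13, while a dimmer probe set went from 45.1 to 42.5, a log2 change of -0.07 that did not pass. Cd74, the invariant chain, was at 418 to 469 and 132 to 173. The class II chains H2-Aa, H2-Ab1 and H2-Eb1 had log2 changes of -1.02, -1.14 and -0.97. All 3 were above their TB14 levels, which were 50.4, 46.3 and 58.8 against 133, 89.9 and 136 in TB13 as line means. Of 13 MHC class I and antigen processing genes 1, H2-Q4, was lower (28.5 to 12.5), a share near the 7.58% of all genes, and its change of -0.71 turned to 0.62 after calibration. H2-Q4 has close relatives that may share its signal, and its limma adjusted p of 0.0418 was 0.139 without TB13 replicate 2, 0.0607 without replicate 3 and 0.0817 without replicate 4.

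Granule genes moved in both directions, where 8.77% of all genes were called higher and 7.58% lower. Of 15 primary granule genes 3 were higher, Mpo, Elane and Nkg7, and none was lower. Elane, neutrophil elastase, had means of 54 ± 1.97 in Trib1, 159 ± 19.1 in TB13 and 373 for TB14, and the TB13 level was the lower of the Bcl11a lines by a log2 difference of -1.17 (limma adjusted p = 2.11e-06). Of 12 secondary granule and mature neutrophil genes 5 were lower and 2 higher. Besides Lcn2 and Itgam, Pglyrp1, a peptidoglycan-binding protein of granules, went from 410 ± 16.3 to 84.6 ± 16.1, and Padi4, which citrullinates histones, from 522 ± 5.18 to 272 ± 16.0. S100a8, a calcium-binding protein of neutrophils and monocytes, had means of 47.2 in Trib1, 21.6 in TB13 and 1474 in TB14, and its change of -0.81 in TB13 turned to 0.50 after calibration. Csf3r, the G-CSF receptor, was higher, from 34.6 to 75.6.

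Receptors and adhesion molecules of phagocytes leaned lower, where 7.58% of all genes were called lower and 8.77% higher. Of 21 Fc and lectin-like receptor genes 6 were lower and 1 higher. Cd300lf, an inhibitory receptor, went from 401 ± 32.5 to 79.0 ± 24.1, and Clec7a, the beta-glucan receptor dectin-1, was the higher one, from 30.3 to 79.0. Of 20 integrin, adhesion and migration genes 4 were lower and 1 higher. Cd44, the hyaluronan receptor, read 940, 920, 982 and 952 in Trib1 and 323, 367, 388 and 319 in TB13, and its 2 other probe sets had log2 changes of -1.38 and -2.28. Cd81, a tetraspanin, was higher, at 30.7 to 36.0 in Trib1 and 145 to 163 in TB13. Of 6 phagocyte oxidase genes all had negative changes and 2 were called lower, Hvcn1 (777 ± 16.4 to 240 ± 17.1), the proton channel that balances oxidase charge, and the oxidase subunit gene Ncf4 (613 to 359). Of 18 lysosome genes 4 were lower and 1 higher, with Hexa, a hexosaminidase subunit, at 872 in Trib1 and 366 in TB13.

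Chemokine, Toll-like receptor and interferon genes showed falls and rises side by side, where 7.58% of all genes were called lower and 8.77% higher. The Toll-like receptor counts were near these shares. Of 15 chemokine and inflammatory cytokine genes 5 were lower and 1 higher. Ccl3 went from 814 ± 29.6 to 264 ± 12.3, while Ccl5 was higher, from 181 ± 10.8 to 433 ± 11.2, with 113 in TB14. Of 14 interferon response genes 2 were higher, Oasl1 (53 to 177) and Oas2, and 2 lower, Irf9 and Ifih1. Of 16 Toll-like receptor and adaptor genes Tlr5 was higher (39.3 to 111) and Tirap lower (125 to 63.6). Without Trib1 replicate 1 or 4, the limma adjusted p of Tirap was 0.0726 or 0.0663, and without Trib1 replicate 2 that of Oas2 was 0.0601. After calibration the changes of Irf9 and Tirap were -0.07 and -0.01, and that of Ifih1 turned from -0.92 to 0.38.

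Immediate early genes and regulators of cell identity included several large falls. Of 21 immediate early and ERK feedback genes 7 were lower and 3 higher, where 7.58% and 8.77% of all genes were. Jun, an AP-1 subunit, read 140, 128, 140 and 149 in Trib1 and 25.1, 25.5, 29.2 and 25.5 in TB13, and a dimmer probe set gave -0.58, which did not pass. Egr1, a zinc finger factor of monocyte development, read 520 to 543 and 184 to 204, and Dusp6, an ERK phosphatase, went from 465 to 160 as line means. Egr3 and Nr4a1 were higher, from 40.7 to 124 and from 106 to 295, and both were near the Trib1 level in TB14, at 39.5 and 95.4. Id2, an inhibitor of E proteins, fell from 924 to 982 in Trib1 to 175 to 210 in TB13, and its log2 change was -2.22 (SE 0.0417; limma adjusted p = 1.97e-14).

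Some progenitor genes were higher after quantile scaling. Of 10 stem and progenitor marker genes that passed 5 were called higher (8.77% of all genes were), none of them under all 5 scalings, and none lower. The weakest, Slamf1, had a limma adjusted p of 0.0425, which rose to 0.0544 to 0.157 without any 1 of the Trib1 arrays, 0.0791 and 0.0684 without TB13 replicates 1 and 4, and 0.0723 to 0.0769 without any 1 of the TB14 arrays. Sox4, a transcription factor of progenitors and leukaemia, read 637, 651, 672 and 636 in Trib1 and 1357, 1347, 1356 and 1396 in TB13, and was called under 4 scalings. Kit, the stem cell factor receptor, was at 193 to 216 and 332 to 420, with a log2 change of 0.80 that was 0.05 for the deposited values and -0.20 after median scaling. Gata2, with 0.72 after quantile scaling, was at 0.01 and -0.25 in the same order. Hoxa9, a homeobox gene of leukaemic self-renewal, had means of 52 ± 2.43 in Trib1, 113 ± 12.7 in TB13 and 48.6 for TB14. Relative to all genes the list's median stayed between 0.41 and 0.59 over the 5 scalings. This was not particular to progenitor genes. The B cell list lay between 0.42 and 1.24 and the stromal and endothelial list between 0.23 and 1.11. Erythroid, megakaryocyte and T cell lists also stayed above all genes, and NK, mast cell and eosinophil lists did not.

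Markers of other cell types gave no uniform pattern, where 8.77% of all genes were called higher and 7.58% lower. Of 15 T cell markers 12 were on the array and 9 passed, 3 were higher (Lat, Thy1 and Cd3e) and 1 lower (Cd3g), and their summed level was 468 to 492 in Trib1 and 1378 to 1493 in TB13. Cd3e read 62.3 to 63.9 in Trib1, 198 to 270 in TB13 and 58.3 to 60.0 in TB14. Cd3d, Cd4, Cd8a and Bcl11b were dim in TB13, at 27.1, 28.0, 24.0 and 32.3, near the array median of 22.7. Of 5 B cell markers that passed Cd22 was higher (60.3 to 191), and the summed level was 172 to 184 in Trib1 and 332 to 401 in TB13. Of 6 NK and cytotoxic markers Gzma and Cd7 were lower. Of 9 mast cell and basophil markers 3 were higher and 3 lower: Mcpt8, a basophil protease, read 1648 to 1689 in Trib1, 824 to 866 in TB13 and 1807 to 1849 in TB14, and Hdc, which makes histamine, went from 318 to 331 to 131 to 146. Of 2 eosinophil markers that passed Siglecf was lower, from 1115 to 579. Of 7 erythroid markers Hba-a1 and Epor were higher and Car2 was lower, with a summed level of 3159 to 3187 in Trib1 and 3544 to 3775 in TB13. Hba-a1 has a near-identical copy and is uncertain. Of 10 megakaryocyte markers Pf4 and Treml1 were higher, and of 8 stromal and endothelial markers Acta2, Kdr and Epcam were higher and Pecam1 lower. Without Trib1 replicate 2 the limma adjusted p of Acta2 was 0.108, and without TB13 replicate 4 that of Pecam1 was 0.0761. Another Epcam probe set had a log2 change of -0.23, which did not pass. The change of Pf4 was 0.82 and turned to -0.18 after median scaling. The summed levels of the other lists did not all rise. Megakaryocyte markers were at 2635 to 2707 in Trib1 and 3163 to 3267 in TB13, and NK markers at 7662 to 7778 and 7663 to 7839. Mast cell markers were at 9119 to 9229 and 8607 to 8851, stromal markers at 945 to 995 and 840 to 873. Eosinophil markers were at 1139 to 1161 and 587 to 621. The part of other cells in these values was not tested.

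Among the cholesterol synthesis genes falls were called and rises were not. Cells make cholesterol from acetyl-CoA through mevalonate, isoprenoids, squalene and lanosterol. The genes are switched on together by the transcription factor Srebf2 when sterols are scarce, and Insig proteins hold that factor back when sterols are plentiful. Promoters of the pathway are known to pair sterol elements with sites for NF-Y, which binds CCAAT, and for Sp1, which binds the GC box. Of 20 genes listed 16 were on the array and passed, 10 were called lower (7.58% of all genes were), none was called higher, and 15 had negative changes. Lss, Idi1, Fdft1, Msmo1, Cyp51 and Sc5d were lower under all 5 scalings. The start regions of 3 of these are shown as examples. The 250 bases before the start of each come from the RefSeq table of GRCm38.p6, with CCAAT or its reverse complement ATTGG in capitals. Lss lies at chr10:76531355-76531604 (+ strand), Idi1 at chr13:8885356-8885605 (+ strand) and Sc5d at chr9:42264301-42264550 (- strand).
Lss: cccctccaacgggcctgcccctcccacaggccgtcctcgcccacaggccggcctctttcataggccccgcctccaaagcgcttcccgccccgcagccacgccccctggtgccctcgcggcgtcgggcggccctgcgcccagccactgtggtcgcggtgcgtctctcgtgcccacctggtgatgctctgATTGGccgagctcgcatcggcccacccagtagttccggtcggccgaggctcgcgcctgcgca
Idi1: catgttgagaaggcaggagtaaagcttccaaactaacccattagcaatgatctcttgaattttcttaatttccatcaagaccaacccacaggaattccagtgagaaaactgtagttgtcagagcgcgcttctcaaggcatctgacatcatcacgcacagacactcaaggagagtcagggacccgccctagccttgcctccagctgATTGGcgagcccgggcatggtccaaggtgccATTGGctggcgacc
Sc5d: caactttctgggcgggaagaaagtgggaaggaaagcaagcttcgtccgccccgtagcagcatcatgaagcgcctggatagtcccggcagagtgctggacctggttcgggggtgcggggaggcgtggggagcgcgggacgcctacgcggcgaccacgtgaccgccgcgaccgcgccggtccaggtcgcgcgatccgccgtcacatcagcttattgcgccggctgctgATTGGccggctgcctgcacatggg

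Of the 16 genes, 13 had an entry in the promoter table, with 15 start regions between them. CCAAT or ATTGG was found on either strand in 13 of these 15 regions, against 33.8% of all 32851 regions of the same length and 34.7% of the 11448 regions of genes tested here. The GC box, GGGCGG or CCGCCC, was found in 14 of the 15, against 32.7% and 54.7%. Each of the 13 genes had at least 1 region with each motif, also Mvk, Nsdhl, Ebp, Dhcr7 and Hsd17b7, which were not called in TB13. Both motifs are known for this pathway, so the shares describe the list and were no test of its change in TB13. A match is a description of the letters and not of a bound site.

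Falls were called at 10 of the 16 genes, and Mvk, Sqle, Nsdhl, Ebp, Dhcr7 and Hsd17b7 were not called, with log2 changes of -0.55, -0.60, -0.63, -0.49, -0.68 and 0.56. Of the early, mevalonate steps, Hmgcs1, the synthase that makes HMG-CoA, was at 40.7 ± 2.06 in Trib1 and 9.71 ± 1.73 in TB13, below the array median of 22.7, so that its change rests on a dim signal. Mvd, the mevalonate diphosphate decarboxylase, was at 257 ± 6.85 and 131 ± 20.6. Idi1, the isomerase of the isoprenoid units, read 1536, 1537, 1537 and 1550 in Trib1 and 664, 758, 753 and 728 in TB13, and its log2 change was -1.07 (SE 0.0313; limma adjusted p = 1.36e-09). All 4 TB13 arrays were under every Trib1 array. Fdft1, the squalene synthase, read 759 to 777 and 340 to 371.

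Of the sterol steps, Lss, which closes the lanosterol ring, read 136, 141, 140 and 145 in Trib1, 17.0, 22.3, 20.2 and 17.3 in TB13 and 90.5 to 94.8 in TB14. The log2 change was -2.26 (SE 0.0626, limma adjusted p = 2.29e-12), and the difference of TB13 minus TB14 was -1.73 (adjusted p = 2.66e-10). The TB13 values lay under the array median of 22.7, so Lss passed the filter through the Trib1 arrays, and the size of its change from Trib1 depends on the pseudocount and the scaling. After calibration the change of Lss from Trib1 was -1.12. Sc5d, a sterol desaturase, read 576 to 606 in Trib1 and 267 to 319 in TB13. Its other probe sets gave -1.37, which passed, and -0.04 at a dim one, which did not.

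In TB14 none of the 16 genes was called against Trib1, their median log2 change was -0.17 against -0.86 in TB13, and 10 were called lower in TB13 than in TB14 (5.91% of all genes were). Relative to all genes the median in TB13 was between -1 and -0.78 over the 5 scalings. Of 12 genes of sterol sensing, uptake and efflux 3 were lower than in Trib1, where 7.58% of all genes were. Insig1 read 287, 282, 268 and 280 in Trib1, 108, 107, 113 and 106 in TB13 and 230 to 255 in TB14. Srebf2 was at 275 ± 5.70 and 157 ± 13, but another of its probe sets had a log2 change of 0.49, which did not pass. Npc1, the lysosomal cholesterol exporter, had a log2 change of -0.80 that turned to 0.48 after calibration. Of 14 fatty acid synthesis genes 1 was lower, Mlxip, a share near the 7.58% of all genes. Its change of -0.89 turned to 0.17 after calibration.

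**Figure D4:**
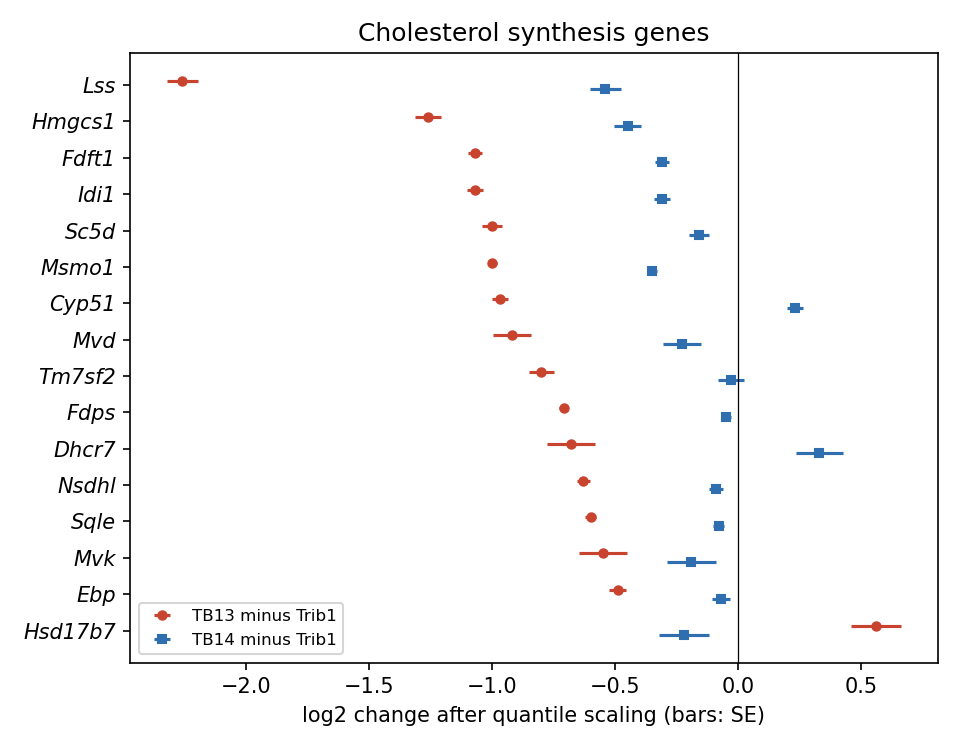
Log2 change against Trib1 after quantile scaling (bars are SE) of the 16 cholesterol synthesis genes in TB13 (circles) and TB14 (squares). In TB13 15 of the 16 lie below 0, and in TB14 most lie between -0.5 and 0.5.

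Cells use the integrated stress response when amino acids run short or proteins misfold, and some of its genes differed between the Bcl11a lines. Of 23 genes 5 were higher and 1 lower in TB13 than in Trib1, where 8.77% and 7.58% of all genes were. None of these calls held under all 5 scalings. Of the 23 genes, 8 were called higher in TB13 than in TB14 (9.06% of all genes were). The other 15 were not called between these lines. Ddit3, the stress factor CHOP, read 310, 322, 294 and 300 in Trib1, 627, 652, 673 and 665 in TB13 and 136 to 143 in TB14. Trib3, a Tribbles pseudokinase induced with it, read 381 to 388, 700 to 734 and 180 to 189. Both were called higher in TB13 and lower in TB14 after quantile scaling, and TB13 exceeded TB14 by log2 differences of 2.14 and 1.89 (limma adjusted p = 6.52e-15 and 2.45e-15). For the deposited values their log2 changes in TB13 were 0.43 and 0.27, which did not pass. Psph, Stc2 and Nupr1 were the other 3 higher genes, with 1.29, 0.86 and 0.96, and Nupr1 was at -0.02 after median scaling. Slc7a11, a cystine transporter, was lower with -0.87, which turned to 0.40 after calibration. S100a8 and AI987944 were the remaining genes called in opposite directions in the lines.

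Lists of general cell functions held few calls, where 8.77% of all genes were called higher and 7.58% lower. No gene was called in either direction among 22 NuRD, BAF and corepressor genes, 28 DNA replication genes, 22 MYC target and ribosome biogenesis genes and 17 aminoacyl-tRNA synthetases. The other lists with few calls were the 24 mitosis genes, where Kif23 was lower (81.8 to 12.6), the 27 respiratory chain genes, where Sdhd was higher (217 to 452), and the 19 glycolysis genes, where Pfkl was higher. The TB13 values of Kif23 lay under the array median of 22.7, so Kif23 passed the filter only through the Trib1 arrays. Of 22 chaperone and unfolded protein genes Creld2 and Syvn1 were lower, of 15 heat shock genes Hspb1 was higher (51.4 to 152), and of 19 antioxidant genes Nqo1 was lower. Of 14 BCL2 family genes Bcl2a1a was lower. Other probe sets of Pfkl gave 0.16 and 0.08 and another of Syvn1 gave -0.02, none of which passed. Pfkl was at -0.21 after median scaling, and Nqo1 and Bcl2a1a turned to 0.10 and 0.43 after calibration.

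The lists on the cell cycle brake, the cytoskeleton, cytokine receptors and chromatin held calls in both directions, as did all genes (8.77% higher and 7.58% lower). Of 23 CDK inhibitor and p53 genes Cdkn2a, Mdm4 and Zmat3 were lower and Ccnd1 and Phlda3 higher. A second probe set of Mdm4 was called in the other direction, with 0.83. After calibration Zmat3 was at -0.07. Of 21 actin and cytoskeleton genes 4 were higher and 4 lower; of the latter Tubb6 had a limma adjusted p of 0.0526 without Trib1 replicate 2 and 0.0544 without replicate 3. Cnn3, an actin-binding calponin, read 9.89 to 11.2 in Trib1, 63.2 to 75.3 in TB13 and 249 to 267 in TB14. Its Trib1 values lay under the array median of 22.7, so Cnn3 passed the filter only through the TB13 arrays. Actn1, an actin cross-linker, went from 745 to 374, but its 2 dimmer probe sets had log2 changes of -0.25 and -0.21, which did not pass. Of 19 cytokine receptor and STAT genes 3 were higher and 2 lower, and of 23 transcription factor genes 4 were higher and 2 lower. Il3ra, the receptor chain for the interleukin-3 in which the cells grew, was at 108 ± 3.36 in Trib1 and 41.3 ± 4.44 in TB13, and its log2 change was -1.16 (limma adjusted p = 9.3e-07), but -0.09 after calibration, which did not pass. Of 15 Polycomb genes Cbx6 was higher (23.3 to 107) and Pcgf1 lower, though at -0.10 after calibration. Of 10 histone genes H2aw was higher, at 159 to 162 in Trib1 and 515 to 568 in TB13, and H1f2 lower; another H2aw probe set gave -0.68, which did not pass.

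**Figure D5:**
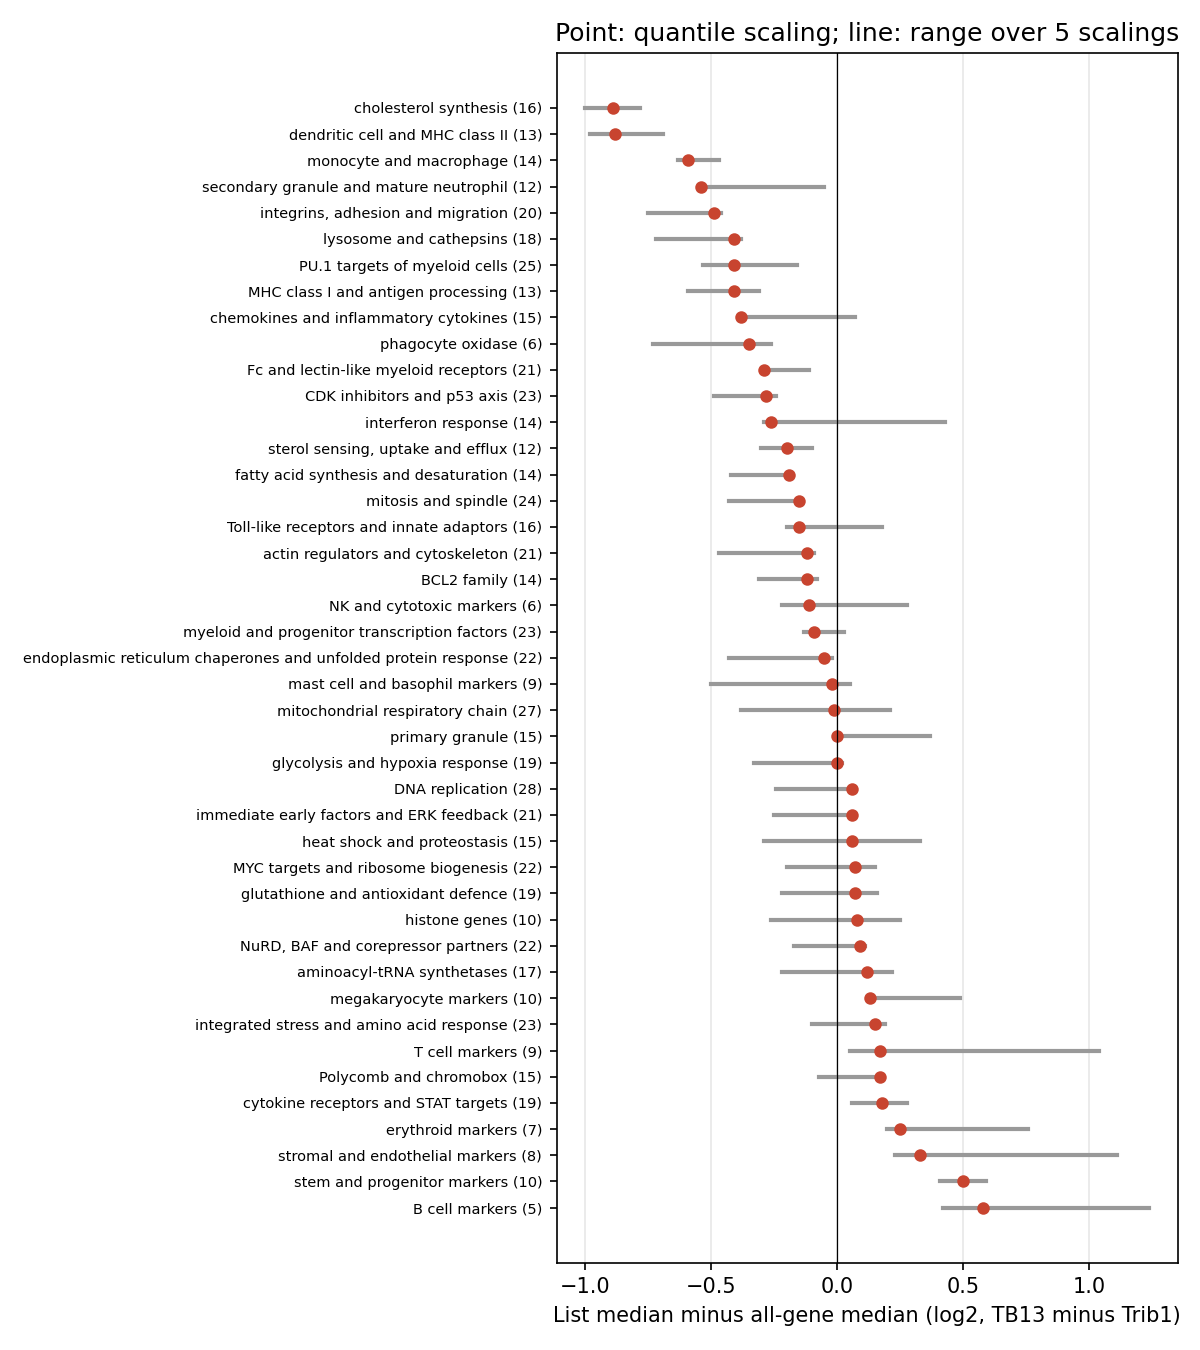
Median log2 change of each gene list in TB13 minus the median of all genes, for lists with at least 5 genes tested (number in brackets); the point is quantile scaling and the line spans the 5 scalings. Of the lists drawn, cholesterol synthesis (-0.89) and dendritic cell and MHC class II genes (-0.88) lie lowest after quantile scaling, and B cell, stem and progenitor, and stromal markers lie highest.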

How the data were processed

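RNA of 12 samples was measured on arrays, as linear intensities that the authors made with MAS5 and deposited, per the submitters' processing notes. Those notes give no background step, scaling target or filter. The 104 control probe sets were left out. In GEO's platform annotation 28898 other probe sets named 1 gene, 551 several and 15588 none. The 12 arrays were quantile-scaled and taken to log2(intensity + 12.7), where 12.7 is the 25th percentile of all deposited values. A gene was represented by its passing probe set with the highest mean. All arrays entered 1 limma 3.58.1 model in R 4.3.3 with 3 groups, a variance trend and treat against 1.5-fold. Of 842 genes on 45 lists, 741 were on the array and 637 were tested.

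The members and lists were chosen with earlier results of these data known. Named genes were Trib1, Bcl11a, Spi1 and Cebpa, the 14 largest rises and falls with no overlap that were called under all 5 scalings, and, for each list and direction, the 4 largest changes called. Clone identifiers were passed over. Cyp51, Msmo1, Mvd, Hmgcs1, Crip1, S100a8, AI987944, Hsd17b7, Stc2, H2-Aa, H2-Eb1, Ccl6 and dim or uncalled genes fall outside this rule. They were named after their values were seen. On data simulated for this comparison with 11066 genes, treat called 0% of changes of 1.5-fold, 90% of 2-fold and 100% of 4-fold, with 50 genes each, and 0 unchanged genes. The simulated arrays had independent noise around a shared mean and none of the array-wide differences of the TB13 arrays. False calls from those differences are therefore not covered. Alternatives were other scalings, filters, pseudocounts, variance models, thresholds, probe set means, the replicate block, the 8 arrays alone and leaving out each array. Figures were drawn with matplotlib 3.10.9.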

Additional observations from a re-analysis of the deposited data

Results flagged for a closer look

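Of 282 groups of 4 values, 24 held an array far from the other 3 by Dixon's test, where chance gives about 5% of groups. In Trib1 these were 272 for Aplp2, 45.5 for Hspb1, 1550 for Idi1, 618 for Ncf4 and 197 for Sdhd on array 4. On array 3 they were 684 for Cdkn2a, 485 for Dusp6, 150 for Lat and 108 for Zmat3. On array 1 they were 36.8 for Csf3r, 42.5 for Ifih1, 181 for Mpo and 1099 for Siglecf, and on array 2 they were 86.4 for Irf9 and 576 for Sc5d. In TB13 they were 244 for Avil, 54.5 for Cdkn2a, 110 for Egr3, 62.2 for H2-DMa and 187 for Hspb1 on array 4. The others were 23 for Ifih1 and 29.2 for Jun on array 3, and 47.9 for Il3ra and 163 for Tubb6 on array 1.

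For 14 of the 28 largest changes, limma's treat test called TB13 different from TB14, where 15% of all genes were. The 28 genes were chosen on the same TB13 arrays, which favours such calls. The log2 differences of TB13 minus TB14 were 2.29 for Aif1l, 2.02 for Aplp2, 1.80 for Avil, 1.68 for Laptm4b, 1.07 for Mmp8, 2.25 for Snrpn, 2.27 for Tcl1b3 and 1.43 for Tph1. They were -1.72 for Alox5, -1.37 for Cdkn2a, -0.86 for Fgd4, -1.76 for Itgam, -1.08 for Mpo and -1.78 for Tgfbi. The genes called in opposite directions in the lines after quantile scaling differed by 2.14 for Ddit3, 1.89 for Trib3, -5.44 for S100a8 and -1.68 for AI987944. None of these 4 was called in opposite directions for the values as deposited.

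The nonspecific control probe set with 25 G and C bases had a mean of 530 on the TB13 arrays, with a lowest value of 461, against a highest value of 200 on the Trib1 arrays.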

How the results depend on the processing

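Of 137 named genes with a call, 55 kept direction and call in each of the 27 alternatives that tested them, 68 in the 4 other scalings and 129 in every fit that left out 1 array and still tested them. The counts of genes higher, lower and different between TB13 and TB14 were 513, 3484 and 4282 as deposited, 154, 5236 and 5608 after median scaling, and 4617, 135 and 4778 after calibration. They were 558, 410 and 871 with a pseudocount of 50, 4750, 4170 and 8851 in a test against no change, and 322, 222 and 473 in a test against 2-fold. Leaving out each array gave 905 to 1011 higher, 636 to 910 lower and 1495 to 1764 between the lines. Calibration turned 8 genes to positive changes: Bcl2a1a 0.43, H2-Q4 0.62, Ifih1 0.38, Mlxip 0.17, Npc1 0.48, Nqo1 0.10, Ptgs2 0.57 and Slc7a11 0.40. Median scaling turned 6 to negative ones: Erg -0.02, Gata2 -0.25, Kit -0.20, Nupr1 -0.02, Pf4 -0.18 and Pfkl -0.21. The cause was not tested. Acta2 and Oas2 were not called without Trib1 replicate 2 (adjusted p = 0.108 and 0.0601 in limma). Pecam1 was not called without TB13 replicate 4 (0.0761), TB13 replicate 3 (0.0563) or Trib1 replicate 3 (0.0582). As whole arrays, TB13 and Trib1 correlated at 0.9521 to 0.9614. In a separate check for pairing by replicate number, the correlations of same-numbered TB13 and Trib1 arrays were -0.09 to 0.02. These showed no pairing, but so few arrays cannot exclude it. With the replicate block 966 genes were higher and 823 lower, of which 1779 were among the calls without it. Signal limits the dim genes, whose levels lie near the array median of 22.7. A gene under that median on all 4 arrays of 1 line passed the filter only through the other line.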
